A study of Mus musculus with 6 samples.

Results

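The genes described here encode the mitochondrial calcium uniporter and the outer membrane channels that lead to it. They are Mcu, Micu2 and Smdt1 of the uniporter, Letm1 of the inner membrane, and the voltage-dependent anion channels Vdac1, Vdac2 and Vdac3. The 7 genes were chosen by gene symbol with the genotype difference in these libraries already known, so their differences are given as a description, without a test. All 7 were found among the 30236 genes of the table, and 7 of 7 were among the 22677 genes tested, namely those not in the lowest 25% by mean value.

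Calcium enters mitochondria through VDAC pores of the outer membrane and then through the uniporter of the inner membrane. MCU forms the uniporter's pore, EMRE, the product of Smdt1, is needed for the pore to conduct and holds the gatekeepers to it, and calcium-sensing gatekeepers such as MICU2 keep the pore shut at low cytosolic calcium. In hepatocytes calcium in the matrix stimulates dehydrogenases that feed respiration, and VDACs also carry ATP, ADP and other metabolites.

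The study compared liver tumors of male C57BL/6 mice that lack the mitochondrial topoisomerase TOP1MT with those of wild-type mice. The WT group held 3 tumors labelled WT, and the Top1mt-KO group (KO) held 3 tumors labelled Top1mt -/-. Mice of both genotypes received diethylnitrosamine, a liver carcinogen, on day 14 after birth. Both also received carbon tetrachloride, which injures the liver, for 14 weeks from week 8, and tumors were collected at week 22. The genotype is that of the whole mouse, not of hepatocytes alone. RNA was sequenced from whole tumor tissue, so fewer cells of a type and less RNA per cell cannot be told apart. All values are the authors' log2 expression values, in which a difference of 1 is a doubling. They do not show how many reads each library had, and its depth is unknown. The labels number the samples within a genotype without naming animals, and p-values measure the spread between these samples.

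The targeted gene was read first. Top1mt had log2 values of 7.71, 5.99 and 8.01 in WT replicates 1, 2 and 3 and of 5.58, 6.41 and 6.32 in KO replicates 1, 2 and 3. The library labelled WT replicate 2 lay at the KO level, against its label, so every direction below rests on the labels, and the main results are also given without that library. KO replicate 1 stood apart in another way. The transcript Gm42418 was at 22.0 there and made up 17.7% of the summed linear values, against at most 0.387% in the other libraries, and Lars2 was at 20.1, against at most 12.7. The main results are therefore also given without KO replicate 1.

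The tissue label was checked against markers. All 9 hepatocyte markers were abundant, led by Alb with a mean of 20.7 and ending with Hnf4a at 13.4. The means of 5 skeletal muscle markers ran from 0.0085 for Ckm to 3.12 for Mylpf.

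Across the 22677 genes tested, limma called 0 between KO and WT at an adjusted p under 0.05 (0%), with 0.938 as the lowest adjusted p. Before adjustment 985 genes (4.34%) passed p under 0.05, with 405 higher in KO and 580 lower. Of all genes tested, 896 (3.95%) had every KO library above every WT library and 981 (4.33%) had every KO library below every WT library, together 1877 (8.28%). Among the 7 uniporter and VDAC genes 1 was higher in this sense, Mcu, and 1 was lower, Vdac2. Nothing is read from this count, since the genotype difference was known when the genes were chosen. Without KO replicate 1 it was 4, with Micu2 and Vdac3 added as higher, against 21.5% of all genes tested in the same libraries. Without WT replicate 2 it was 3, with Letm1 added as lower, against 18.3%, and without both libraries it was 5, against 33.6%. Without KO replicate 2 it was 3, with Vdac1 added as lower, against 16.9%. Nothing is read from these counts either. In all, 4 of the 7 genes had a higher and 3 a lower mean in KO, with a median difference of 0.014, against -0.015 over all genes tested.

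Mcu, the pore subunit, had the largest difference of the 7 genes. Its log2 values were 8.49, 8.57 and 8.59 in WT and 9.24, 8.85 and 9.06 in KO. All 3 KO libraries were above all 3 WT libraries, and the lowest KO library exceeded the highest WT library by 0.26. WT libraries averaged 8.55 ± 0.053 and KO libraries 9.05 ± 0.19 (SD, n = 3 each). The difference was 0.50 (SE 0.15, 95% interval 0.16 to 0.84), a ratio of 1.42. KO replicate 1 was the highest, and without it the difference was 0.41. Without WT replicate 2 it was 0.51, and without both libraries it was 0.42.

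The separation of Mcu depended on the scaling. When each library was centred on the median of 16 mitochondrial genes of other functions (such as Cs, Sdha and Cox4i1), every difference moved by -0.11. Mcu then stood at -2.26, -2.19 and -2.05 in WT and at -1.51, -2.10 and -1.72 in KO. KO replicate 2 now fell below WT replicate 3, so the groups overlapped, and the difference was 0.39. When libraries were centred on the median of all genes tested, differences moved by 0.054 and Mcu was again higher in all 3 KO libraries.

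Micu2 encodes a calcium-sensing gatekeeper of the pore. It was measured at 9.89, 9.95 and 9.89 in WT and at 9.87, 10.25 and 9.98 in KO. The WT libraries lay close together, KO replicate 2 was the highest and KO replicate 1 the lowest of all 6, and the groups overlapped. The difference was 0.12 (SE 0.14, 95% interval -0.20 to 0.45). It was 0.015 without KO replicate 2 and under centring on the mitochondrial genes, 0.21 without KO replicate 1 and 0.15 without WT replicate 2.

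Smdt1, which encodes EMRE, had values of 9.25, 9.70 and 9.29 in WT and 9.90, 9.11 and 9.27 in KO. KO replicate 1 and WT replicate 2 were high and the other 4 libraries low, in both genotypes. The means were nearly equal, with a difference of 0.014 (SE 0.23, 95% interval -0.52 to 0.54). Its sign depended on single libraries, since leaving out KO replicate 1 gave -0.22 and leaving out WT replicate 2 gave 0.16. It was -0.095 under centring on the mitochondrial genes.

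Letm1 encodes an inner membrane protein of cation and proton exchange. It had values of 9.35, 8.99 and 9.40 in WT and 8.95, 9.26 and 9.25 in KO. WT replicate 2 and KO replicate 1 were the lowest, and the groups overlapped. The difference was -0.094 (SE 0.17, 95% interval -0.48 to 0.29). Leaving out KO replicate 1 gave 0.0088. Leaving out WT replicate 2 gave -0.22, and the groups then no longer overlapped.

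**Figure D1:**
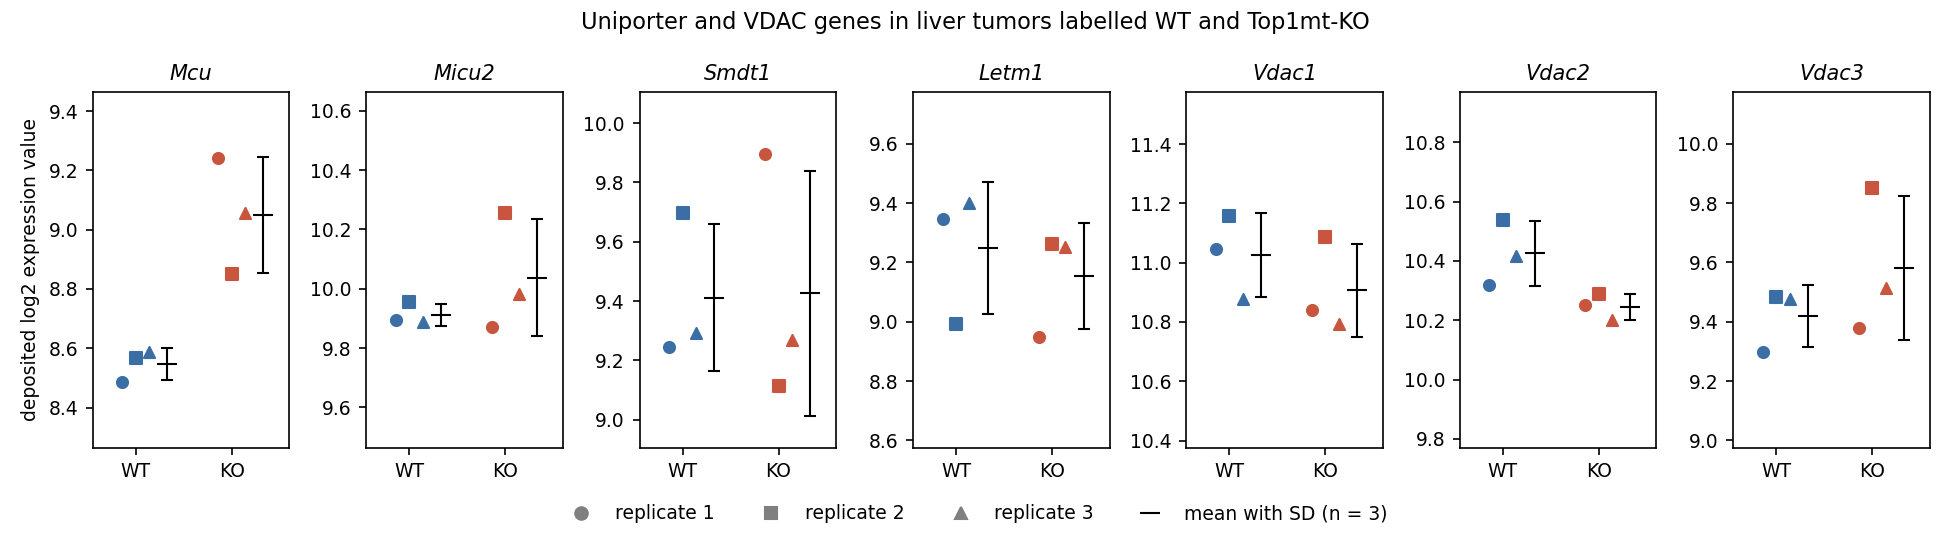
Deposited log2 expression values (y axis) of the 7 genes in each library labelled WT (blue) or KO (red). Symbols mark replicates, black lines mark the mean with SD (n = 3), and all panels cover the same span. Mcu is higher in all 3 KO libraries and Vdac2 lower, while Smdt1 and Letm1 part along WT replicate 2 and KO replicate 1.

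The pair Smdt1 and Letm1 ran opposite to each other over the 6 libraries (Pearson's r = -0.89, n = 6 libraries, given as a description). Transcript length moved with the same libraries. Protein-coding genes with a mean above 7 were grouped by the length of their exons, and each value was centred on the gene's mean. In the 149 genes under 1 kb the median centred value was 0.42 in KO replicate 1 and 0.13 in WT replicate 2, and lay between -0.20 and -0.093 in the other 4 libraries. In the 295 genes of 1 to 1.5 kb, which include Smdt1 with 1479 bases, it was 0.24 in KO replicate 1 and 0.10 in WT replicate 2. Smdt1 itself stood at 0.48 and 0.28 in these libraries. Its longest principal transcript in the annotation has 705 bases, and by that length it would fall with the genes under 1 kb. In the 4359 genes over 5 kb, which include Letm1 with 9650 bases, the medians lay between -0.012 and 0.014, while Letm1 stood at -0.25 in KO replicate 1 and -0.21 in WT replicate 2. The part of transcript length in the values of Smdt1 and Letm1 was not tested.

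**Figure D2:**
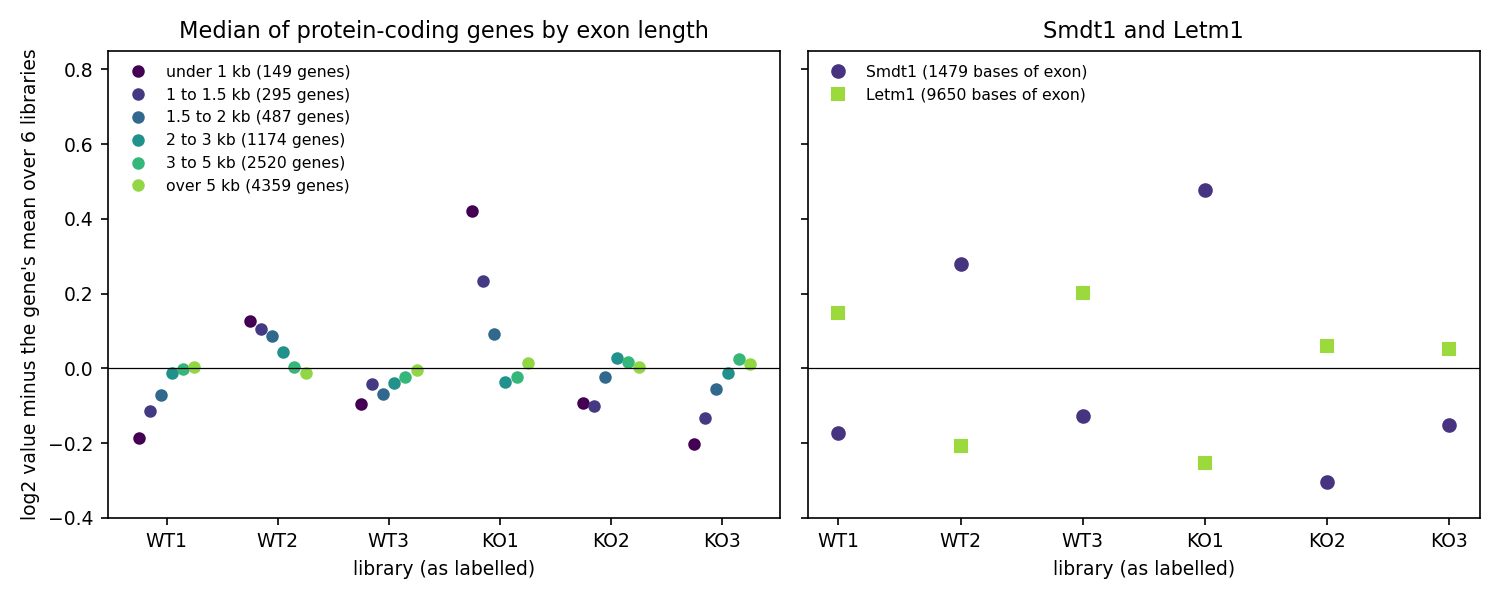
Log2 values minus the gene's mean over 6 libraries (y axis) by library (x axis), as medians of protein-coding genes grouped by exon length (left) and for Smdt1 and Letm1 (right). Short genes and Smdt1 are high in the libraries labelled WT replicate 2 and KO replicate 1, and Letm1 is low in both.

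Vdac1 is the main VDAC of most tissues. It had values of 11.04, 11.16 and 10.88 in WT and 10.84, 11.09 and 10.79 in KO. KO replicate 2 lay above WT replicates 1 and 3, so the groups overlapped. The difference was -0.12 (SE 0.15, 95% interval -0.45 to 0.22). It was -0.054 without WT replicate 2, -0.087 without KO replicate 1 and -0.021 without both. Without KO replicate 2 it was -0.21, and the groups then no longer overlapped. Under centring on the mitochondrial genes all 3 KO libraries lay below all 3 WT libraries, with a difference of -0.23.

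Vdac2, whose product also binds the cell death protein BAK, was measured at 10.32, 10.54 and 10.42 in WT and at 10.25, 10.29 and 10.20 in KO. All 3 KO libraries were below all 3 WT libraries, by a margin of 0.033. WT libraries averaged 10.43 ± 0.11 and KO libraries 10.25 ± 0.044 (SD, n = 3 each). The difference was -0.18 (SE 0.12, 95% interval -0.46 to 0.10), a ratio of 0.883. It was -0.12 without WT replicate 2, -0.18 without KO replicate 1 and -0.29 under centring on the mitochondrial genes. Under centring on the median of all genes it was -0.13 and the groups overlapped.

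Vdac3, the third channel, had values of 9.30, 9.48 and 9.48 in WT and 9.38, 9.85 and 9.51 in KO. KO replicate 2 was the highest and WT replicate 1 the lowest, and the groups overlapped. The difference was 0.16 (SE 0.16, 95% interval -0.20 to 0.53). Much of it rested on KO replicate 2, without which it was 0.027. Leaving out KO replicate 1 gave 0.26, leaving out WT replicate 2 gave 0.19, and centring on the mitochondrial genes gave 0.052.

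Ratios of 2 genes within a library do not depend on the scaling between libraries, and were compared between libraries only. The log2 ratio of Mcu to Smdt1, pore against EMRE, stood at -0.76, -1.13 and -0.70 in WT and at -0.65, -0.26 and -0.21 in KO. Every KO library was higher, with WT replicate 2 the lowest of all, and the difference was 0.49, or 0.36 without WT replicate 2 and 0.63 without KO replicate 1. The log2 ratio of Mcu to Micu2, pore against gatekeeper, stood at -1.41, -1.39 and -1.30 in WT and at -0.63, -1.40 and -0.93 in KO. KO replicate 2 lay among the WT libraries, since both Mcu and Micu2 were above the WT libraries there, and the difference was 0.38, or 0.20 without KO replicate 1 and 0.59 without KO replicate 2.

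Among the channels, the log2 ratio of Vdac2 to Vdac3 stood at 1.02, 1.06 and 0.94 in WT and at 0.87, 0.44 and 0.69 in KO. Every KO library was lower, by -0.34 on average, and the difference lay between -0.44 and -0.23 when single libraries were left out. The groups overlapped for the log2 ratio of Vdac1 to Vdac2, with a difference of 0.061 that ran from -0.010 to 0.12 when single libraries were left out. They also overlapped for that of Vdac1 to Vdac3, with a difference of -0.28.

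Levels of different genes were compared as log2 values per kb of exon, averaged over the 6 libraries. Vdac1 had the highest level, 9.58 ± 0.15 (SD, n = 6). Smdt1 followed at 8.85 ± 0.31, Micu2 at 8.35 ± 0.14 and Vdac2 at 8.08 ± 0.12. Vdac3 was at 7.06 ± 0.19, Mcu at 6.00 ± 0.30 and Letm1 at 5.93 ± 0.19 (all SD, n = 6). Mcu and Letm1 did not differ beyond their spread, with a level difference of 0.075 ± 0.43 (SD, n = 6), and Mcu was above in 4 of 6 libraries. Smdt1 was above Micu2 in 5 of 6 libraries, and every other neighbour pair kept its order in 6 of 6. With the length of the longest principal transcript in place of all exons, a choice made after the data were seen, the order became Vdac1 (9.95), Smdt1 (9.92), Vdac2 (9.37), Vdac3 (9.06), Micu2 (8.75), Mcu (7.28) and Letm1 (6.80). On that scale Vdac1 and Smdt1 did not differ beyond their spread (0.028 ± 0.35, SD, n = 6). Vdac1 was at the top and Mcu and Letm1 were at the bottom on both scales.

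Other genes of the uniporter complex were tested in the fit over all genes. Mcub, the MCU paralog that lowers uniporter conductance, ranged from 3.04 to 4.51 in WT and from 1.26 to 4.06 in KO, with overlapping groups and a difference of -1.33 (SE 0.79, limma's adjusted p = 0.999). Micu3, a gatekeeper best known from neurons, differed by -0.23 (SE 0.35) and Mcur1, a regulator of the uniporter, by 0.050 (SE 0.13), both with overlapping groups. Over the whole complex 5 of 7 genes had a higher and 2 a lower mean in KO, with a median difference of 0.050.

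Among the 7 genes for uniporter assembly and EMRE turnover, the groups overlapped in every case. They comprise Maip1, the proteases Afg3l2, Afg3l1, Spg7 and Yme1l1, and the prohibitins Phb and Phb2. Their differences ran from -0.14 for Spg7 to 0.17 for Maip1, with a median of 0.040, and 0 of 7 had an unadjusted p under 0.05 by limma.

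Of 8 genes for inner membrane calcium and cation exchange, Slc25a24 alone did not overlap between the groups. Slc25a24, a calcium-dependent ATP-magnesium carrier, was at 7.37, 6.61 and 6.83 in WT and at 6.38, 5.97 and 5.88 in KO. Every KO library was lower, with a difference of -0.86 (SE 0.28, limma's adjusted p = 0.999), and it was lower under each scaling tried. Its relatives Slc25a23 and Slc25a25 differed by 0.21 (SE 0.15) and -0.54 (SE 0.59). The sodium and calcium exchanger Slc8b1 differed by -0.024 (SE 0.23), Ghitm, a proton and calcium exchanger that interacts with LETM1, by 0.20 (SE 0.16), Letm2 by -0.21 (SE 0.38) and Letmd1 by -0.069 (SE 0.17). The groups overlapped for each of these.

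Contact sites between the endoplasmic reticulum and mitochondria, where calcium released by IP3 receptors meets VDACs, were followed in 15 genes. Itpr3, an IP3 receptor, was at 9.23, 8.71 and 9.17 in WT and at 8.70, 7.12 and 7.94 in KO. KO replicate 1 lay just under WT replicate 2, and the difference was -1.12 (SE 0.37, limma's adjusted p = 0.999), with overlapping groups under centring on the mitochondrial genes. It ran from -1.51 to -0.71 when single libraries were left out.

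In the remaining lists few genes were separated. Ryr3, a calcium release channel, was the 1 of 16 genes of endoplasmic reticulum and plasma membrane calcium without overlap, with low values of 3.01 to 3.30 in WT and 0.89 to 2.69 in KO, and a difference of -1.50 (SE 0.55, limma's adjusted p = 0.999). Tomm40, the pore of outer membrane import, was the 1 of 10 in its list, with 8.67 to 9.06 in WT and 8.59 to 8.65 in KO, and a difference of -0.23 (SE 0.15, limma's adjusted p = 0.999). It was -0.13 without WT replicate 2, and the groups overlapped under centring on the median of all genes. None of 12 VDAC partners and permeability transition genes, 11 genes of calcium-sensitive matrix metabolism and 16 mitochondrial reference genes was without overlap, and their median differences were 0.017, -0.031 and 0.016.

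Over all lists, 98 genes other than the 7 were tested, of which 47 had a higher and 51 a lower mean in KO, with a median difference of -0.0093. Limma called 0 of them at an adjusted p under 0.05, and 5 had an unadjusted p under 0.05. Slc25a24, Itpr3 and Ryr3 were among these. In 2 of the 98 genes all KO libraries were higher and in 4 lower, together 6.12%, against 8.28% of all genes tested. The pathway lists were chosen with earlier results of these data known, so nothing is read from this share.

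**Figure D3:**
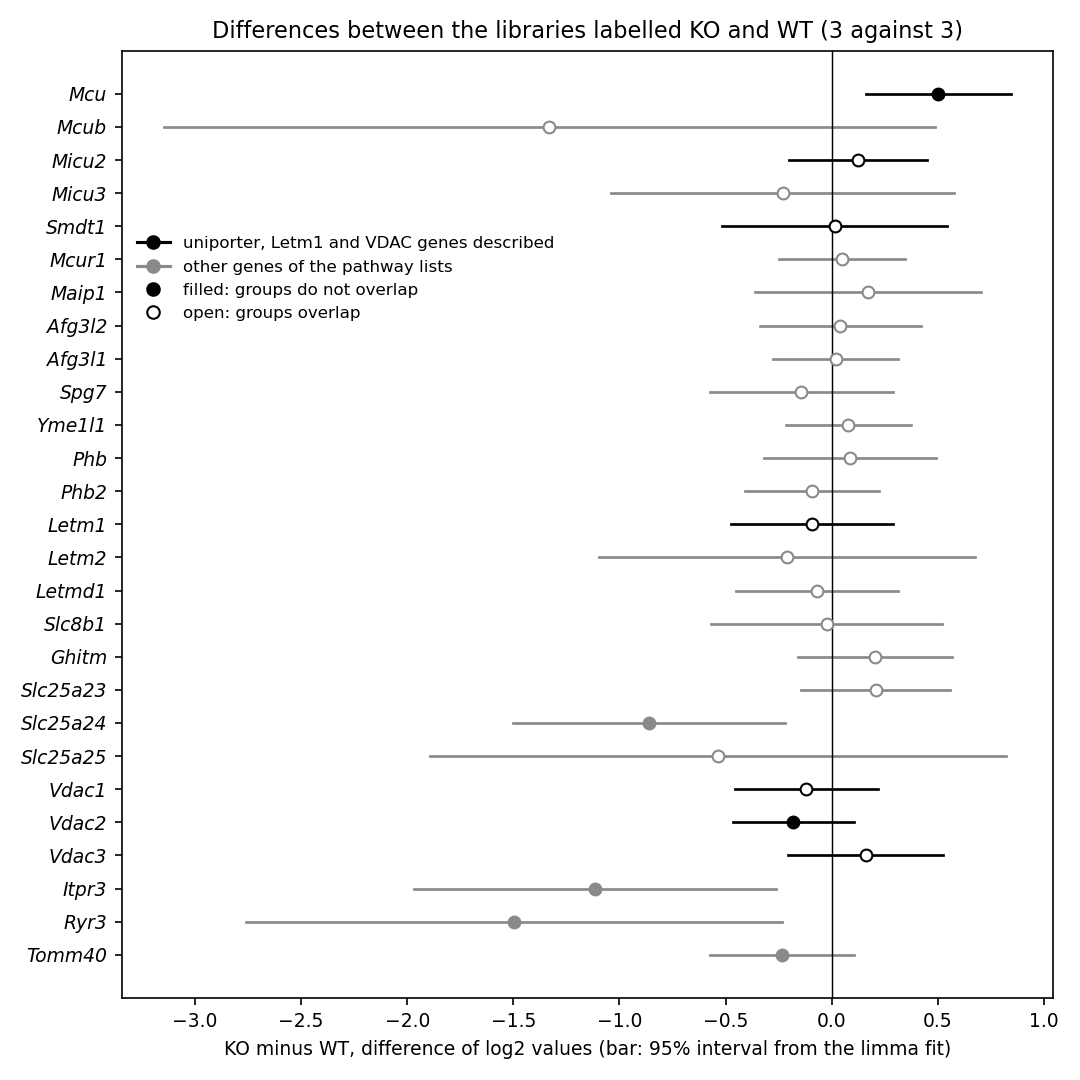
Difference of mean log2 values, KO minus WT (x axis), for the 7 genes (black) and other genes of the pathway (gray), with 95% intervals from the limma fit. Filled points mark genes whose groups do not overlap (3 libraries against 3), and among the 7 genes these are Mcu at 0.50 and Vdac2 at -0.18.

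Markers of hepatocytes, of other cell types, of proliferation and of tumors were read beside these values. Of all 65 markers in 12 lists, limma called 0 after adjustment, while 13 (20.0%) had an unadjusted p under 0.05, against 4.34% of all genes tested. In 4 markers every KO library was higher and in 6 lower, together 15.4% against 8.28% of all genes tested. The marker lists were chosen with earlier results of these data known, so nothing is read from these shares. The summed level of a list overlapped between the groups in 11 of 12 lists. The exception was the erythroid list, whose log2 sums were 12.81, 11.88 and 12.04 in WT and 11.81, 11.25 and 11.65 in KO. Of its 5 genes 2 did not overlap, both lower in KO, Hba-a2 by -0.90 and Hbb-bs by -0.82. Hba-a1, Hbb-bt and Alas2 differed by -0.83, -0.75 and 0.013 with overlapping groups. The most abundant was Hbb-bs with a mean of 10.8, and the lowest, Hba-a2, was at 8.37. In the bile duct and progenitor list, 2 of 5 genes were lower in every KO library, Krt19 by -2.68 and Epcam by -1.19, while Krt7, Sox9 and Spp1 differed by -2.195, 0.146 and 0.045 with overlapping groups. Its log2 sums were 12.62, 12.16 and 11.58 in WT and 12.03, 11.70 and 12.58 in KO, with Spp1 the most abundant at 12.0 and Krt19 the lowest at 4.59. In the endothelium list, Cdh5 and Pecam1 were higher in every KO library, by 0.40 and 0.16. Stab2, Kdr and Clec4g differed by 0.157, 0.048 and -0.073, with overlapping groups. The log2 sums of this list, 12.76, 12.53 and 12.65 in WT and 12.69, 12.74 and 12.98 in KO, overlapped. Its most abundant gene was Stab2 at 11.6, and its lowest was Clec4g at 8.24. The part of these cell types in the values of Mcu and Vdac2 was not tested.

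Similar patterns over the 6 libraries were sought among all genes tested, and the 2 genes with the highest Pearson's r are given for each gene. With only 6 libraries, a search over so many genes can return r values this high by itself. They are given as a description, and no shared control is read from them. For Mcu they were Gm13244, which lay near the bottom of the scale, and Ceacam1, both with r = 0.992 (n = 6 libraries). For Micu2 they were Hook3 (r = 0.990) and 5730422E09Rik (0.988), for Smdt1 Apoc4 (0.996) and Alg12 (0.993), and for Letm1 Tbc1d19 (0.993) and Fam83b (0.993). For Vdac1 they were Tmed1 (0.994) and Ren1 (0.993), for Vdac2 Ccdc116 (0.991) and Abl1 (0.985), and for Vdac3 Gm20939 (0.979) and Mrps9 (0.975). Ren1, Fam83b, Ccdc116 and 5730422E09Rik also had low mean values, at 1.37, 1.45, 2.39 and 2.73. Among the 7 genes themselves Micu2 and Vdac3 were most alike, with r = 0.951, and both were highest in KO replicate 2. Mcu and Vdac2 had r = -0.72.

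By annotation on GRCm38 the 7 genes lie on 6 chromosomes. Mcu lies on the minus strand at chr10:59446984-59616692. Smdt1 lies at chr15:82338959-82349091, 6.66 Mb from Top1mt. Micu2 lies at chr14:57916261-57999262, Vdac2 at chr14:21825238-21845879, Letm1 at chr5:33739673-33782817, Vdac1 at chr11:52360860-52389397 and Vdac3 at chr8:22577075-22593813.

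Some of these genes share sequence or position with others, and their values are to that extent uncertain. Vdac2 matched the processed pseudogene Gm7832 over 881 bases at 97.0% identity. Vdac3 matched the pseudogenes Gm7591 over 856 bases at 96.7% and Vdac3-ps1 over 856 bases at 99.2%. Vdac3-ps1 had low values, 2.67 to 2.94 in WT and 0.61 to 3.07 in KO. The transcripts of Mcu, Micu2, Smdt1, Letm1 and Vdac1 matched no other gene over 300 bases or more at 95% identity, although Letm1 shared 100 bases or more with 28 genes. Mcu overlaps Gm10322 (mean 2.48) and Vdac2 overlaps Comtd1 (mean 5.29) on the opposite strand, and Smdt1 overlaps Pheta2 on its own strand.

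RefSeq promoters (GRCm38.p6, 250 bases before to 50 after the start) were matched for 5 of the 7 genes, in 6 entries, and Vdac2 and Vdac3 had no match. The promoters of Mcu and Smdt1 are shown because these partners in a single channel differed in their pattern over the libraries. Capitals mark matches, on either strand, to a CCAAT box (CCAAT), a GC box (GGGCGG), a cAMP response element (TGACGTCA) or an E-box (CACGTG). The Mcu promoter lies at chr10:59616643-59616942 on the minus strand, the Smdt1 promoter at chr15:82345796-82346095 on the plus strand, and both read 5′ to 3′ along the gene:
Mcu: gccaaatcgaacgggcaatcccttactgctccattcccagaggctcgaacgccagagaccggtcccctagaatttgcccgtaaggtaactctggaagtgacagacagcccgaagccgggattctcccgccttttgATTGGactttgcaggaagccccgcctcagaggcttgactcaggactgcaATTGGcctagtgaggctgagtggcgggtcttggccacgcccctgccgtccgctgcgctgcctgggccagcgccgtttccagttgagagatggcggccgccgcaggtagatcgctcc
Smdt1: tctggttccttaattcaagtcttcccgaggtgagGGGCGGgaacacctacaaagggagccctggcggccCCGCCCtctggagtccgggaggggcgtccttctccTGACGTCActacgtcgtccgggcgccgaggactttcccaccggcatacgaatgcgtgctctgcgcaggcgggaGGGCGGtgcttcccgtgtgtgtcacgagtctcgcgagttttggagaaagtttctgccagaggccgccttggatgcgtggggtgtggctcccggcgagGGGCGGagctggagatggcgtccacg
The Mcu promoter held 2 CCAAT boxes and no match to the other motifs. The Smdt1 promoter held 1 cAMP response element and 4 GC boxes. Of 32851 promoters, 37.4% held a CCAAT box, 35.7% a GC box, 1.79% a cAMP response element and 7.15% an E-box. These matches describe letters in the window, and no binding was measured here.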

How the data were processed

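RNA of 3 liver tumor samples labelled WT and 3 labelled Top1mt-KO was compared. The deposited values are log2 expression per gene symbol, from -2.24 to 22.0. The transform is not named in the sources used here, and the values behave like a regularized log, which draws weakly expressed genes toward their mean. Neither counts nor depth can be had from them, so no count model was run. The submitters' processing notes name bcl2fastq 2.17, Trimmomatic 0.36, STAR 2.5.1, Subread, DESeq2 and GRCm38. The paper's methods name Trimmomatic, BWA, a genome called Mm 8, uniquely mapped reads and featureCounts. The aligner and build of the values therefore remain uncertain. Libraries were stranded, but whether counting used the strand is not given in the sources used here. Columns without a name (3, with 24 leftover cells) were not used, and 5 symbols occurred more than once.

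KO and WT were compared in R 4.3.3 with limma 3.58.1 (lmFit, eBayes with trend, Benjamini-Hochberg adjustment, threshold 0.05) on genes above the lowest 25% of means. Standard errors and intervals of the 7 genes come from the same fit. The procedure was also run on simulated data. Recovery was required there only for a shift larger than any group difference described here. The power to call differences of the sizes described here is therefore not given. Other steps used Python 3.11.15 and pandas 2.3.3. Positions and lengths came from GENCODE M21 on GRCm38, matched by symbol. Near-identical transcripts were sought with blastn 2.17.0, and promoters came from RefSeq.

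The 7 genes and the 10 pathway and 12 marker lists were chosen with earlier results of these data known. Named genes are the 7, Top1mt, the other genes of the lists for the uniporter complex, its assembly and inner membrane exchange, and from each other pathway list genes past the threshold and up to 4 with the largest difference among those without overlap. The 2 most similar genes by Pearson's r are also named for each of the 7. Any other gene was named after its values were seen, and some genes under this rule are not reported here. Alternatives were limma without trend, quantile normalization, no filter, a filter at the median, a replicate block, centring on all genes or on 16 mitochondrial genes, and each library left out. Leaving out WT replicate 2 together with KO replicate 1, and principal transcript length, were added after the data were seen. Proteins were not used here.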

Additional observations from a re-analysis of the deposited data

How the results depend on the processing

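Directions of Mcu, Micu2, Vdac1, Vdac2 and Vdac3 were kept under every alternative tried, and those of Smdt1 and Letm1 were not. When single libraries were left out, the difference between KO and WT ran from 0.41 to 0.60 for Mcu, 0.015 to 0.21 for Micu2, -0.22 to 0.17 for Smdt1, -0.22 to 0.0088 for Letm1, -0.21 to -0.054 for Vdac1, -0.23 to -0.12 for Vdac2 and 0.027 to 0.26 for Vdac3. The number of these genes without overlap, 2 in the libraries as deposited, was 1 (Mcu) under centring on the median of all genes tested. It ran from 2 to 4 when single libraries were left out, which leaves fewer values to overlap, and was 4 without KO replicate 1 (Mcu, Micu2, Vdac2 and Vdac3). It was 5 without both WT replicate 2 and KO replicate 1, with Letm1 added. Under centring on the mitochondrial genes it was also 2, but the genes were Vdac1 and Vdac2, and the cause was not tested. The share of all genes tested without overlap is not given under either centring, and nothing is read from these counts.

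The count of genes called by limma was 0, and was 4 with no filter on low values (1700049E15Rik, Gm14130, Gm25081 and Gm26962, with values between -1.84 and -0.71). It ran from 0 to 1 when single libraries were left out, the 1 being Prom1 without KO replicate 1, at a difference of -2.21. These genes were named after their values were seen, and the cause was not tested. It was 0 under the other settings, where 590 to 1349 genes had an unadjusted p under 0.05. Of the 98 other pathway genes 0 were called under any setting.

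The groups share replicate numbers, and the deviations of same-numbered libraries correlated at -0.12, -0.076 and 0.052. The labels do not say whether same-numbered libraries were paired, and these correlations cannot settle it. With the replicate number as a block limma called 0 genes, and 912 had an unadjusted p under 0.05.

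The comparison rests on 3 libraries a group, and their depth is unknown. The effect of the transform on differences of weakly expressed genes such as Mcub and Ryr3 was not tested.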

Other observations

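Some marker genes of the tumors that the uniporter and VDAC comparison did not touch had large spreads. Afp, a fetal liver and tumor marker, had a mean of 11.55 in WT and 9.76 in KO, with a difference of -1.79 (SE 1.05) and overlapping groups. In the neutrophil list 4 of 4 genes had a lower mean in KO, with S100a8 at -1.39 (SE 0.49) and S100a9 at -1.08 (SE 0.41), both with overlapping groups and limma's adjusted p = 0.999. In the proliferation list Mcm2 was lower in every KO library, by -0.52 (SE 0.22, limma's adjusted p = 0.999), while Mki67 differed by 0.22 (SE 0.29). Top2a and Cdk1 differed by 0.25 and 0.31, and Pcna and Ccnb1 by -0.12 and -0.095, all with overlapping groups.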
